A study of Mus musculus with 6 samples.

Results

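The genes described here are 43 genes of DNA replication and nucleotide synthesis, listed by name and found by symbol among the 26754 genes of each deposited table. They copy the genome in S phase. The MCM2 to MCM7 ring is loaded onto DNA by Cdc6 and Cdt1 and becomes the replicative helicase when Cdc45 and the GINS complex join it. Polymerase alpha with primase starts each strand, polymerases delta and epsilon extend it on the sliding clamp PCNA, and ribonucleotide reductase with thymidylate synthase supplies the deoxynucleotides. Many of these genes are transcribed at the G1 to S border through E2F factors, so they are widely read as marks of dividing cells, which in a melanoma include tumour cells as well as activated T cells.

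Cells were selected with CD8a beads, and their RNA sequenced, from flank tumours of B16, a melanoma line of mouse origin, in female C57BL/6J mice aged 6 to 8 weeks. The cells were taken on day 7 (3 libraries) or day 14 (3 libraries) after implantation, with no other treatment or genetic change in the labels. The study concerns the integrin LFA-1 and IL-2/STAT5 signalling in CD8 T cells inside tumours, by its title, and the labels give 1 comparison, day 14 against day 7. Nothing in the labels says that replicates came from separate mice, so p-values measure only the spread between these samples. In such bulk RNA, fewer cells of a type and less RNA per cell cannot be told apart.

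RefSeq promoters (build GRCm38.p6, 250 bases before to 50 bases after the start site) were at hand for 35 of the 43 genes. They were searched on both strands for 6 E2F motifs, TTTGGCGC, TTTCCCGC, TTTGGCGG, TTTCCCGG, TTTGCCGC and TTTCGCGC, whose matches may overlap. At least 1 of the motifs was present in 15 of the 35 genes (42.9%), against 4.55% of the 27025 genes in the table. The share was 25 of 76 (32.9%) in the other pathway genes described below and 2 of 17 (11.8%) in mitosis genes, so the motifs are not particular to the members. A match was present in 6 of 9 licensing and helicase genes with a promoter and in 3 of 5 polymerase and primase genes. The same held for 3 of 10 clamp, clamp loader, single-strand binding and strand-joining genes and for 3 of 4 chromatin genes. None of the 5 nucleotide synthesis genes or the 2 G1 to S genes held these letters in this window. The CCAAT box (letters CCAAT, either strand) was present in 60% of the 35 genes and in 41.1% of all genes. It was present in 48.7% of the other pathway genes and in 82.4% of the mitosis genes. Median GC content was 61.3% in the member promoters and 52.7% in all, and its part in these shares was not tested. The windows below show 6 members with a match upstream of the start site, chosen because they span loading, unwinding, priming and methylation copying. They read 5′ to 3′ on the strand of the gene, with the matched letters in capitals. They lie at chr8:75109336-75109387 (Mcm5, plus strand), chr1:128359784-128359835 (Mcm6, minus), chr5:138172021-138172068 (Mcm7, minus), chr11:98907993-98908040 (Cdc6, plus), chrX:93632266-93632313 (Pola1, minus) and chr17:56304108-56304155 (Uhrf1, plus).
Mcm5: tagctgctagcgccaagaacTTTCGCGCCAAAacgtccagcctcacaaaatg
Mcm6: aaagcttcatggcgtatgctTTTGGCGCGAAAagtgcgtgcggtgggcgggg
Mcm7: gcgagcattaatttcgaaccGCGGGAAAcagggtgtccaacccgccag
Cdc6: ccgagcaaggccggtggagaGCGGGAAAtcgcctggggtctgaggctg
Pola1: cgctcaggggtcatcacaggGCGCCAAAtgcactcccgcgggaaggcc
Uhrf1: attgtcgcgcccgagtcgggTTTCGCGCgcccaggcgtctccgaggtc
In Mcm5 and Mcm6 a match on each strand overlaps into a run of 12 matched letters, and in Mcm7, Cdc6 and Pola1 the match is on the opposite strand.

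Values are RPKM, reads per kilobase of gene model and per 1000000 reads in genes. Depth was lower on day 7 (6523019 to 9313078 reads) than on day 14 (11385106 to 13316522). Fewer genes had a read on day 7 (13133 to 13806) than on day 14 (18318 to 19053). The first pair of day 7 libraries, replicates 1 and 2, were close to sampling noise (chi-square ratio per fragment with a median of 1.11 and a mean of 1.63, where replicate 3 had medians of 40.9 and 44.4 with each). Whether they are 1 library or 1 pool of RNA is not known. Their mean counts as 1 sample, giving n = 2 for day 7 and n = 3 for day 14, and counting all 6 singly raised the calls over all genes from 329 to 1560. Some members differed between them, such as Prim1 with 38 and 86 reads. All 12 T cell markers checked had reads in all libraries, and so did all 10 pigment-cell markers. Summed over each list, T cell markers stood at 537 to 555 RPKM on day 7 and 139 to 149 on day 14, melanoma markers at 5891 to 6098 and 10757 to 11763, and macrophage markers at 134 to 181 and 287 to 299. Of the genes tested, 7 of 12 T cell markers were lower on day 14, and 4 of 10 melanoma and 3 of 9 macrophage markers higher. The B cell, fibroblast and endothelial lists summed to at most 7.51 RPKM in any library. NK cell markers summed to 129 to 173 RPKM on day 7 and 16.4 to 19.5 on day 14, neutrophil markers to 12.7 to 17.4 and 49.0 to 63.3 with Mpo at 0 throughout, dendritic cell markers to 13.9 to 38.1 and 16.6 to 20.9, and red cell precursor genes to 1654 to 2114 and 1782 to 2008.

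The share of the RNA that the replication genes took as a group overlapped between the days. None of the 30 members that passed the filter on low values changed at an adjusted p under 0.05 in limma, where 4.92% of all 6691 tested genes did (1.76% higher and 3.15% lower on day 14, or 118 and 211 genes, against 60 and 298 with median-of-ratios scaling). At an unadjusted p under 0.05 there was 1 member, Mcm5, and limma-voom on reads recovered from the RPKM called 7 members, where it called 32.1% of all genes. The summed RPKM of the 43 genes was 627, 614 and 729 in day 7 replicates 1 to 3 and 689, 701 and 707 in day 14 replicates 1 to 3. The day 14 sums lay inside the day 7 range, but day 7 replicate 3 alone set its top. Replicates 1 and 2 lay below every day 14 library. As a share of reads the genes took 0.258% to 0.304% on day 7 and 0.298% to 0.307% on day 14. The median log2 fold change, on the log2(RPKM + 1) scale used throughout, was 0.094 for the 30 tested members and 0.16 for all genes tested. It was 0.16 over all 43 members. The T cell, melanoma and macrophage sums given above differed between the days, and their part in the values of the replication genes was not tested.

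**Figure D1:**
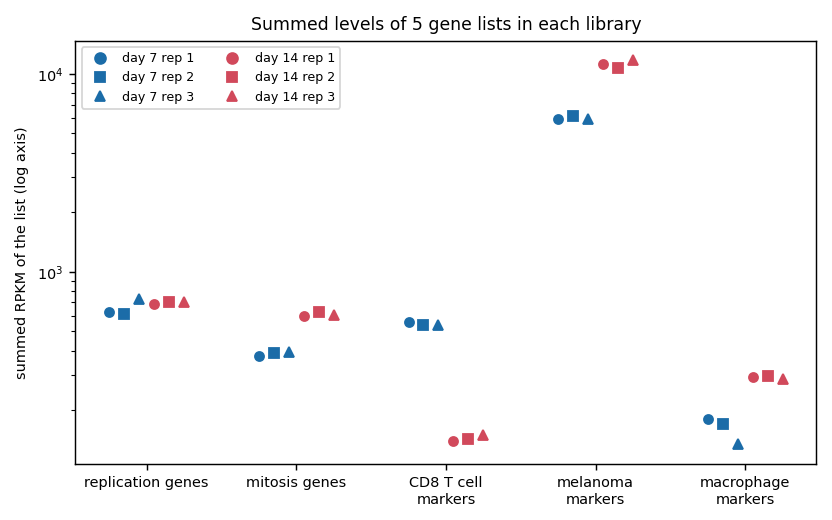
Summed RPKM (log axis) of the 43 replication genes, 20 mitosis genes and 3 marker lists, 1 point per library with day 7 in blue and day 14 in red. The replication sums of the days overlap, the T cell sums are 537 to 555 against 139 to 149, and the mitosis, melanoma and macrophage sums are higher in every day 14 library.

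The intervals show what these samples can and cannot distinguish. For Pcna, the sliding clamp, the 95% interval of the log2 fold change was -0.37 to 0.58, and for Mcm3 it was -0.60 to 0.38, so a 2-fold change lies outside both. Intervals were wide for less abundant genes, from -1.74 to 0.80 for Pole and from -0.27 to 2.02 for Fen1. Of the 30 tested members, 6 had all day 14 libraries above all day 7 libraries (Rfc1, Lig1, Rrm1, Tyms, Uhrf1 and Dnmt1) and 4 had them all below (Mcm5, Mcm6, Gmnn and Rpa1). Over all genes tested the same was seen in 31.6% and 17.8%, so neither count exceeds the background. The remaining 13 members averaged under 20 reads per 1000000 and were not tested. They are Cdt1, Gins1, Pola2, Pold1, Pold2, Rfc3, Rfc4, Rpa2, Rpa3, Tk1, Ccne2, E2f1 and Chaf1b, and their values are given with their roles.

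**Figure D2:**
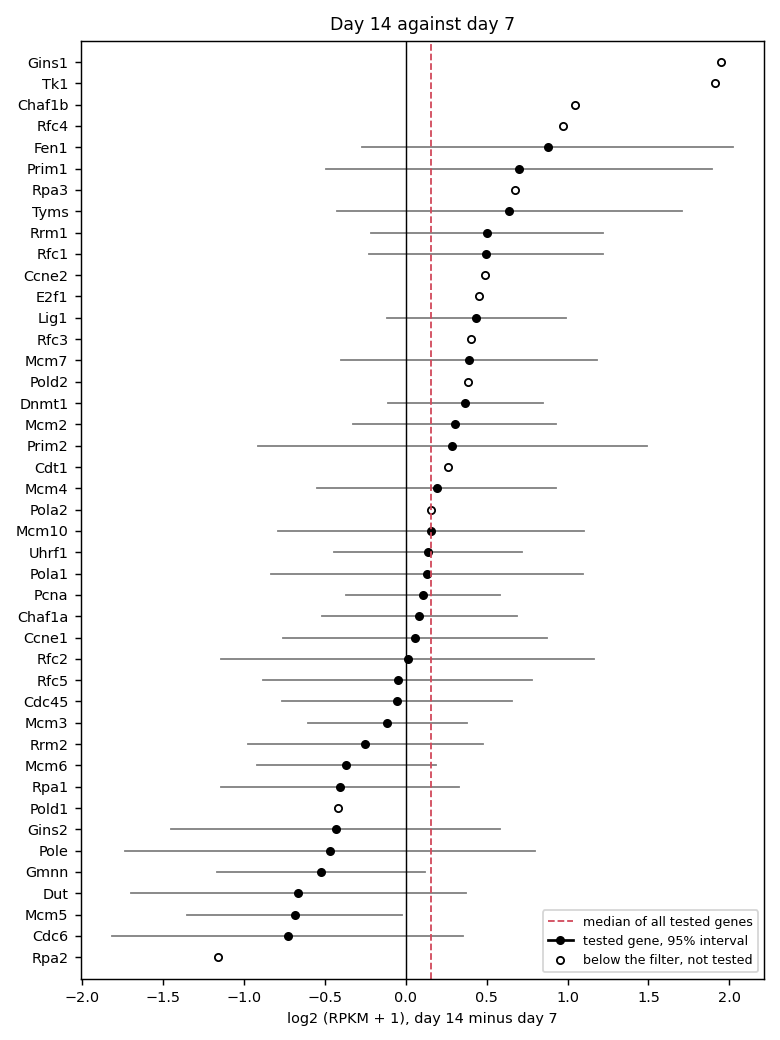
Log2 fold change of each of the 43 genes, day 14 minus day 7, on the log2(RPKM + 1) scale. Filled points with 95% intervals are the 30 tested genes, open points the 13 untested ones, and the dashed line is the median of all tested genes at 0.16. Mcm5 has the 1 interval that lies wholly on a side of 0, while Gins1 and Tk1, both untested, lie farthest to the right.

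Among the genes that load and unwind, Mcm3 had the highest RPKM. Its RPKM was 57.8, 54.1 and 55.2 in day 7 replicates 1 to 3 and 54.3, 47.8 and 51.9 in day 14 replicates 1 to 3. Ranks between genes depend on the deposited model lengths, 3752 bases for Mcm3 and 6956 for Mcm2. In reads Mcm2 exceeded Mcm3 in every day 14 library and in day 7 replicate 3, but not in day 7 replicates 1 and 2. Mcm2, which binds histones as well as DNA in the ring, stood at 21.0, 20.6 and 33.1 on day 7 and at 31.5, 34.7 and 31.7 on day 14. The day 14 values of Mcm2 matched day 7 replicate 3 and exceeded replicates 1 and 2 (log2 fold change 0.30, SE 0.28, limma adjusted p = 0.599). Mcm6 stood at 31.0, 32.3 and 43.9 on day 7 and at 27.1, 29.2 and 29.7 on day 14, with no overlap (log2 fold change -0.37, SE 0.25, adjusted p = 0.453). Mcm7 stood at 12.5, 10.8 and 24.0 on day 7 and at 20.6, 22.8 and 23.6 on day 14. Mcm4 was at 11.0, 10.1 and 18.1 and at 16.8, 16.1 and 15.0. For both, the 3 day 14 values lay inside the day 7 range. The Mcm7 model shares exon bases with Ap4m1, Cops6 and Mir25, so part of its reads is uncertain. The same holds for Chaf1a (620 of 3308 bases with Ubxn6), Ccne2 (609 of 3495 with Ints8), Rfc2 (952 of 6303 with Lat2), Rfc5 (499 of 4669 with Wsb2), Cdc45 (209 of 2252 with Ufd1l) and Lig1 (247 of 4268 with 6330408A02Rik). Tk1, Pole and Rpa1 share 83, 78 and 44 bases with another model.

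Mcm5, a ring subunit at the gate through which DNA enters, had the lowest unadjusted p of the members. Its RPKM was 36.3, 33.2 and 18.5 in day 7 replicates 1 to 3 and 16.3, 15.1 and 14.8 on day 14. Replicates 1 and 2 of day 7 stood high, while replicate 3 was close to the day 14 libraries. Its log2 fold change was -0.69 (SE 0.30, 95% interval -1.35 to -0.023, limma adjusted p = 0.241). The gene lies at chromosome 8, 75109569 to 75128439, plus strand of GRCm38.

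The subunits of the ring were not at equal levels per length. Their shares within the summed RPKM of the 6 ring genes do not depend on how libraries are scaled. No rate over other genes is set beside the shares here or below. A lack of overlap in a share is therefore not read as particular to these genes. Mcm3 ranked top in all 6 libraries, with 28.6% to 34.1% of the sum. Mcm5 ranked 2 in day 7 replicates 1 and 2 (21.4% and 20.6%), 5 in replicate 3 (9.59%) and 6, the lowest, in all 3 day 14 libraries (8.90% to 9.81%). Mcm2 took 12.4%, 12.8% and 17.2% on day 7 and 18.9%, 21.0% and 19.0% on day 14, the 1 ring subunit whose share was higher in every day 14 library. Mcm6 took 18.3% to 22.8% on day 7 and 16.2% to 17.8% on day 14, with every day 14 library lower. The order on day 14, Mcm3, Mcm2, Mcm6, Mcm7, Mcm4 and Mcm5, was the same in its 3 libraries, and Mcm4 at 15.0 to 16.8 RPKM and Mcm5 at 14.8 to 16.3 overlapped there.

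**Figure D3:**
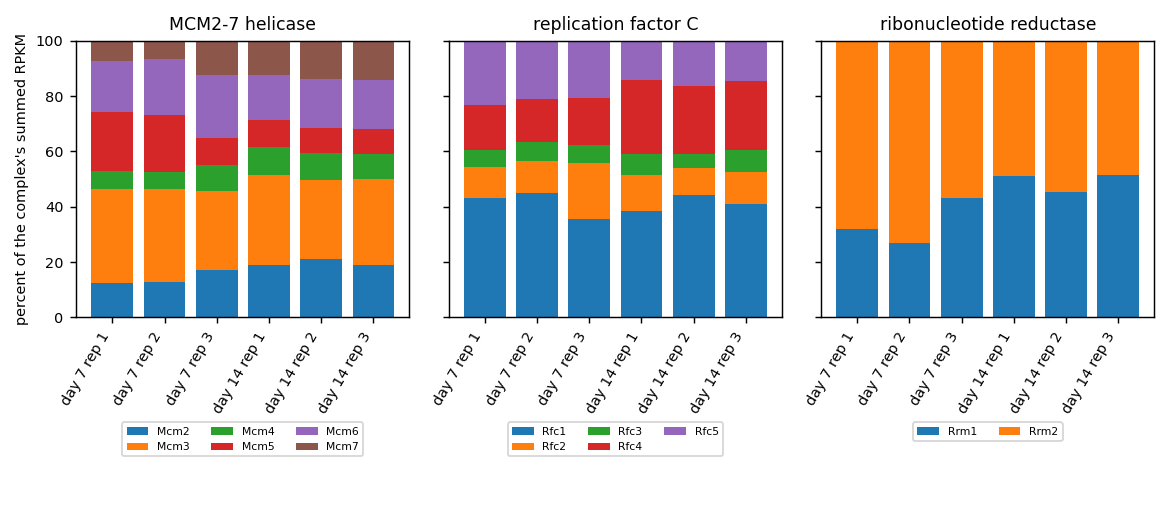
Share of each subunit in the summed RPKM of its complex, as stacked bars from 0 to 100% for each library, for the MCM2-7 helicase, replication factor C and ribonucleotide reductase. The Mcm5 share is 21.4% and 20.6% in day 7 replicates 1 and 2 and under 10% in the other 4 libraries, and the Rrm1 share is higher in every day 14 library.

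None of the licensing factors was called. Cdc6, the loader ATPase, stood at 3.89, 4.97 and 8.27 RPKM on day 7 and at 2.65, 3.23 and 4.06 on day 14 (log2 fold change -0.73, SE 0.49, adjusted p = 0.45). Its values overlap between days by a narrow margin. Cdt1, its partner, was not tested. It stood at 0.559, 0.342 and 4.78 RPKM on day 7 and at 2.63, 2.03 and 2.80 on day 14, with day 7 replicate 3 the highest library. These rest on 14, 10 and 98 reads on day 7 and 94, 80 and 117 on day 14, where 2 reads stand for about 1 fragment. Geminin, Gmnn, which inhibits Cdt1, stood at 33.6, 33.0 and 36.2 on day 7 and at 25.7, 25.6 and 20.6 on day 14 (log2 fold change -0.52, SE 0.29, adjusted p = 0.35). All Gmnn values of day 14 were below those of day 7.

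None of the 3 tested helicase cofactors, Cdc45, Mcm10 and Gins2, was called. Cdc45 stood at 12.4 to 15.7 RPKM on day 7 and at 13.0 to 14.5 on day 14, and Mcm10, which helps to open the origin, at 6.72 to 7.99 and 7.09 to 9.01. Gins1, a GINS subunit, had 1.82, 1.98 and 3.44 RPKM on day 7 and 13.9, 11.97 and 12.8 on day 14. That is 22, 28 and 34 reads against 240, 228 and 259, a ratio of mean RPKM of 4.83, in a gene below the filter. Without the filter its adjusted p was 0.0954. Gins2, of the same complex, stood at 3.74, 3.83 and 10.2 on day 7 and at 4.87, 3.85 and 4.58 on day 14 (log2 fold change -0.43), so the high value of replicate 3 sets its day 7 mean. The Gins2 model shares 2758 of its 4097 bases with Gse1 on the opposite strand, and the strand setting of the counting is not given in the sources used here.

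**Figure D4:**
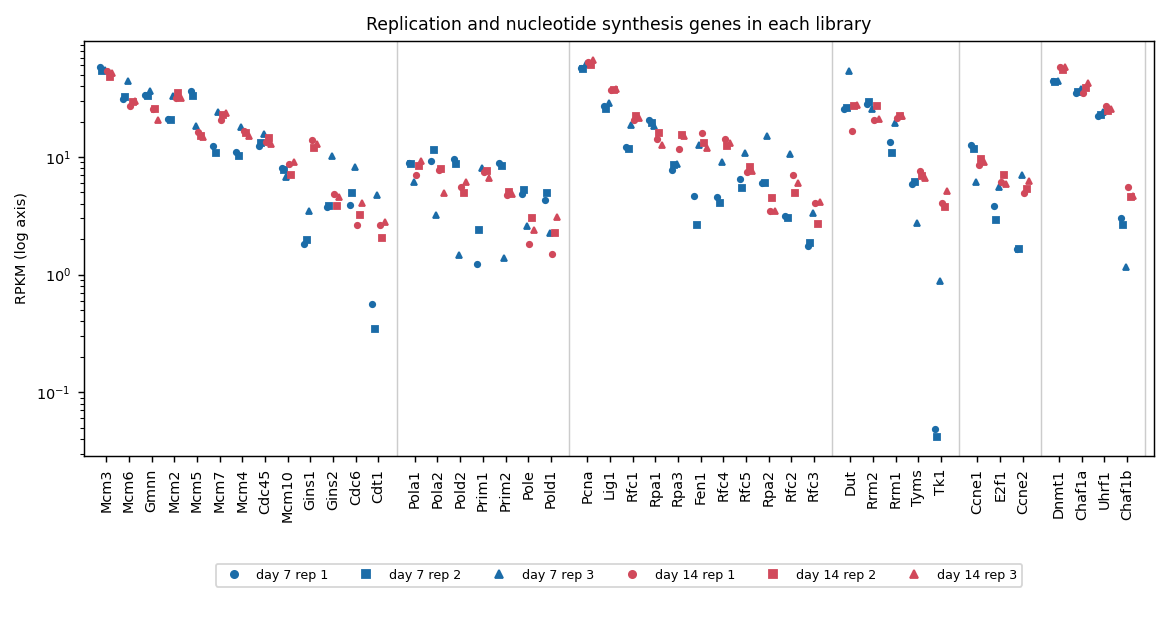
RPKM (log axis) of each of the 43 genes in each library, with vertical lines between 6 role groups: licensing and helicase, polymerases and primase, clamp to ligase, nucleotide synthesis, G1 to S regulators, and chromatin copying. The 3 day 14 points of a gene lie close together, whereas day 7 replicate 3 (blue triangles) often stands apart from replicates 1 and 2, as for Prim1, Prim2 and Tk1.

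The polymerase and primase genes stood at 11.5 RPKM or less in every library. None of the 4 tested (Pola1, Prim1, Prim2 and Pole) was called, and for all 7 the libraries of the days overlapped. Pola1, the catalytic subunit of polymerase alpha, stood at 8.91, 8.67 and 6.16 RPKM on day 7 and at 7.03, 8.38 and 9.22 on day 14. Prim1, the catalytic primase subunit, stood at 1.23, 2.39 and 8.12 and at 7.52, 7.57 and 6.60 (log2 fold change 0.70, SE 0.54, adjusted p = 0.517). Its partner Prim2 went the other way within day 7, at 8.92, 8.43 and 1.39, and stood at 4.79, 4.99 and 4.84 on day 14. Day 7 replicate 3 was therefore the highest of the 6 libraries for Prim1 and the lowest for Prim2. Pole, of polymerase epsilon, stood at 4.86, 5.27 and 2.61 on day 7 and at 1.83, 3.01 and 2.40 on day 14. The untested Pola2, Pold1 and Pold2, the last 2 of polymerase delta, ranged from 3.20 to 11.5, 2.27 to 4.91 and 1.46 to 9.53 on day 7, and from 4.92 to 7.84, 1.5 to 3.06 and 4.95 to 6.10 on day 14.

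Of the clamp, its loader and the strand-joining genes, Pcna had the highest RPKM. It stood at 57.1, 55.7 and 62.1 RPKM in day 7 replicates 1 to 3 and at 63.8, 60.2 and 67.3 on day 14 (log2 fold change 0.10, SE 0.22, adjusted p = 0.836). The gene lies at chromosome 2, 132249162 to 132253314, minus strand. Lig1, the ligase that seals Okazaki fragments, stood at 26.9, 25.4 and 28.7 and at 37.4, 36.8 and 37.9. Every day 14 library was above every day 7 library for Lig1, with a log2 fold change of 0.44 (SE 0.25, adjusted p = 0.371). Fen1, which trims the flaps that Lig1 seals, stood at 4.66, 2.66 and 12.5 on day 7 and at 15.96, 13.08 and 12.03 on day 14 (log2 fold change 0.88, the largest of the tested members, SE 0.52, adjusted p = 0.386). Without day 7 replicate 3, which leaves 1 averaged day 7 sample, the Fen1 value was 1.65. The Fen1 value from limma-voom was 1.63 (limma-voom adjusted p = 0.0242), in a fit that called 32.1% of all genes. The Fen1 model shares 1909 of its 2422 bases with Gm10143 on the opposite strand, so its level is uncertain.

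Among the clamp loader subunits, Rfc1 led in every library, with 12.2, 11.7 and 18.6 RPKM on day 7 and 20.5, 22.3 and 21.6 on day 14 (log2 fold change 0.49, SE 0.33, adjusted p = 0.441). Rfc4, untested, stood at 4.58, 4.06 and 8.99 and at 14.3, 12.4 and 13.2, without overlap. Its share of the summed loader RPKM was 15.5% to 17.2% on day 7 and 24.5% to 26.7% on day 14, while that of Rfc5 was 20.6% to 23.3% and 14.1% to 16.3%. Rfc5 itself stood at 6.56, 5.47 and 10.8 and at 7.51, 8.25 and 7.59, so its level overlapped between days although its share did not. Rfc2 ranged from 3.05 to 10.7 on day 7 and from 4.98 to 7.01 on day 14, and the untested Rfc3 from 1.74 to 3.31 and from 2.69 to 4.12. The Rfc4 model shares 194 of 1534 bases with Eif4a2 on the opposite strand.

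Of the 3 genes of replication protein A, which coats single-stranded DNA, the 1 tested was not called. Rpa1, the large subunit, stood at 20.8, 19.5 and 18.3 RPKM on day 7 and at 14.2, 16.0 and 12.7 on day 14 (log2 fold change -0.41, SE 0.33, adjusted p = 0.536). Rpa2, untested, stood at 5.95, 6.03 and 15.2 and at 3.46, 4.44 and 3.46, and Rpa3, also untested, at 7.73, 8.51 and 8.64 and at 11.6, 15.3 and 15.2. The libraries of the days did not overlap for these 3 genes, as for 31.6% (day 14 higher) and 17.8% (lower) of all tested genes. As Rpa2 and Rpa3 were not tested, counts over tested and untested genes are given too. They were 6134 higher and 1951 lower of all 26754 genes, and 12 and 5 of the 43 members. Within the complex the Rpa3 share was 20.5% to 24.98% on day 7 and 39.7% to 48.4% on day 14, and the Rpa2 share 17.3% to 36.1% and 11.0% to 12.4%.

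In nucleotide synthesis, Rrm1 RPKM was higher relative to Rrm2 in every day 14 library. They are the subunits of ribonucleotide reductase, the enzyme that makes deoxynucleotides. Which subunit stands higher depends on the model lengths, 11012 bases for Rrm1 and 2771 for Rrm2. In reads Rrm1 exceeded Rrm2 in every library, with 1166, 1106 and 1384 against 626, 764 and 458 on day 7. On day 14 the reads were 2686, 3067 and 3278 against 647, 935 and 775. Rrm1, the large subunit, stood at 13.3, 10.8 and 19.3 RPKM on day 7 and at 21.4, 22.2 and 22.4 on day 14 (log2 fold change 0.50, SE 0.33, adjusted p = 0.431). Rrm2, the small subunit made in S phase, stood at 28.3, 29.6 and 25.3 and at 20.5, 26.9 and 21.0 (log2 fold change -0.25, SE 0.33, adjusted p = 0.723). The ratio of Rrm1 to Rrm2 was 0.469, 0.364 and 0.760 on day 7 and 1.045, 0.825 and 1.06 on day 14. All day 14 ratios lay above the day 7 ratios, although neither gene was called.

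Of the thymidine genes, Tyms was tested and not called, and Tk1 was below the filter. Tyms, thymidylate synthase, stood at 5.85, 6.17 and 2.77 RPKM on day 7 and at 7.53, 6.90 and 6.62 on day 14 (log2 fold change 0.64, SE 0.48, adjusted p = 0.506). Tk1, the thymidine kinase of the salvage route, had 2, 2 and 30 reads on day 7 and 240, 244 and 357 on day 14, or 0.048, 0.041 and 0.885 RPKM against 4.06, 3.74 and 5.16. It averaged 14.4 reads per 1000000 over the samples and was below the filter. With no filter Tk1 was the 1 member of 43 called (limma adjusted p = 0.0179, log2 fold change 1.91), where 6.38% of all genes were called. Of those calls over all genes, 79.5% were higher on day 14, against 35.9% of the calls with the filter. The 2 Tk1 reads in day 7 replicate 1, and the 2 in replicate 2, correspond to about 1 fragment each. Dut, the dUTPase that keeps uracil out of DNA, stood at 25.4, 26.3 and 53.7 on day 7 and at 16.5, 27.1 and 27.7 on day 14, with replicate 3 of day 7 above the other 5 libraries (log2 fold change -0.66, SE 0.47, adjusted p = 0.47).

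Of the G1 to S regulators, Ccne1, the cyclin E1 partner of Cdk2, was the 1 tested gene, at 12.7, 11.6 and 6.10 RPKM on day 7 and 8.579, 9.6 and 8.999 on day 14 (log2 fold change 0.055). Ccne2, cyclin E2, showed the reverse order within day 7, at 1.65, 1.66 and 7.06, and stood at 4.98, 5.35 and 6.25 on day 14. E2f1, the transcription factor whose family reads the motifs shown above, stood at 3.82, 2.93 and 5.54 and at 6.18, 6.99 and 5.83. The E2f1 values of day 14 were all above day 7, the closest by a narrow margin, on 86 to 114 and 222 to 277 reads.

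None of the 3 tested genes that copy chromatin and DNA methylation was called. Dnmt1, the maintenance methyltransferase, stood at 44.2, 43.7 and 44.3 RPKM on day 7 and at 58.0, 55.4 and 58.3 on day 14, with a log2 fold change of 0.37 (SE 0.22, 95% interval -0.11 to 0.85, adjusted p = 0.386). Day 7 replicate 3 did not stand apart for this gene, and all day 14 values were higher. Uhrf1, which brings Dnmt1 to newly copied DNA, stood at 22.5, 22.9 and 24.0 and at 26.9, 24.8 and 25.5 (log2 fold change 0.14). Chaf1a, the large subunit of the histone chaperone CAF-1, stood at 34.7, 35.3 and 37.6 and at 34.9, 38.5 and 42.5 (log2 fold change 0.084). Chaf1b, its partner, was untested at 3.01, 2.62 and 1.16 on day 7 and 5.55, 4.58 and 4.68 on day 14.

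The other genes of the pathway, 92 listed by their textbook roles, held no called gene either. Of the 64 tested, limma called 0, 1 had an unadjusted p under 0.05, and limma-voom called 13. Among 22 further replication factors (origin recognition complex, remaining polymerase subunits, fork protection) 14 had a log2 fold change above 0, as had 13 of 21 further nucleotide synthesis genes and 16 of 21 further G1 to S genes, beside 4095 of all 6691 tested genes. The median log2 fold changes were 0.17, 0.14 and 0.17, close to the 0.16 of all genes. That gene was Cdk2, the cyclin E kinase, at 95.1, 92.4 and 48.3 RPKM on day 7 and 99.5, 115 and 111 on day 14 (log2 fold change 0.68, SE 0.27, limma adjusted p = 0.194). Of the 92 genes, 10 were listed at 0 in at least 1 day 7 library, among them Orc1 and Dctpp1 in replicates 1 and 2 and Chek1 in replicate 3. No member was at 0 in any library.

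Of 19 tested mitosis genes, which act after replication in the same cycle, 2 rose, Ccnb1 and Cenpf (limma adjusted p = 0.0472 and 0.047). The summed RPKM of the 20 listed was 374, 387 and 395 on day 7 and 601, 625 and 608 on day 14. Over all tested genes 1.76% were called higher. All 3 day 14 libraries exceeded all day 7 libraries for 15 of the 19, and for 31.6% of all tested genes. Both calls were lost with a pseudocount of 0.1, with either looser filter and with median-of-ratios scaling, where 0 mitosis genes were called. By contrast limma-voom called 13 mitosis genes, all higher on day 14, where it called 1436 of all 6691 genes higher. The sum over replication genes was 1.585 to 1.844 times the mitosis sum on day 7 and 1.123 to 1.164 times on day 14. The difference between the lists was not tested.

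Day 7 replicate 3 and the pair of replicates 1 and 2 stood apart from each other in these genes. The median absolute difference in log2(RPKM + 1) over the 43 genes was 0.080 for replicate 1 with 2, 0.67 for 1 with 3, and 0.78 for 2 with 3. Pairs of day 14 libraries gave 0.11 to 0.14. Across the days it was 0.44 to 0.64 for replicates 1 and 2 and 0.34 to 0.39 for replicate 3. Replicate 3 thus lay nearer to the day 14 libraries than to replicates 1 and 2. Replicates 1 and 2 also lay nearer to the day 14 libraries than to replicate 3. As this pair counts as 1 sample, the values do not show which side of day 7 is unusual. For 31 of 43 members the gap within day 7 was larger than the difference between days, and for 13 all day 14 values lay inside the day 7 range. These counts were made over the members only. No share over all genes is set beside them, so they are not read as particular to these genes. Without replicate 3, limma called 16 of 30 members, 11 higher and 5 lower on day 14, where 58% of all genes were called. That fit has 1 averaged day 7 sample, which is assumed to vary like day 14. The filter was applied anew there, so Chaf1b was tested while Cdc6 and Gins2 were not. The 11 were Prim1, Mcm4, Chaf1b, Fen1, Rfc1, Rfc2, Mcm7, Mcm2, Lig1, Rrm1 and Dnmt1, and the 5 were Rpa1, Gmnn, Prim2, Pole and Mcm5. In this fit the log2 fold changes of the 11 ran from 0.37 (Dnmt1) to 1.65 (Fen1), with Prim1 at 1.55, and those of the 5 from -0.46 (Gmnn) to -1.12 (Mcm5).

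**Figure D5:**
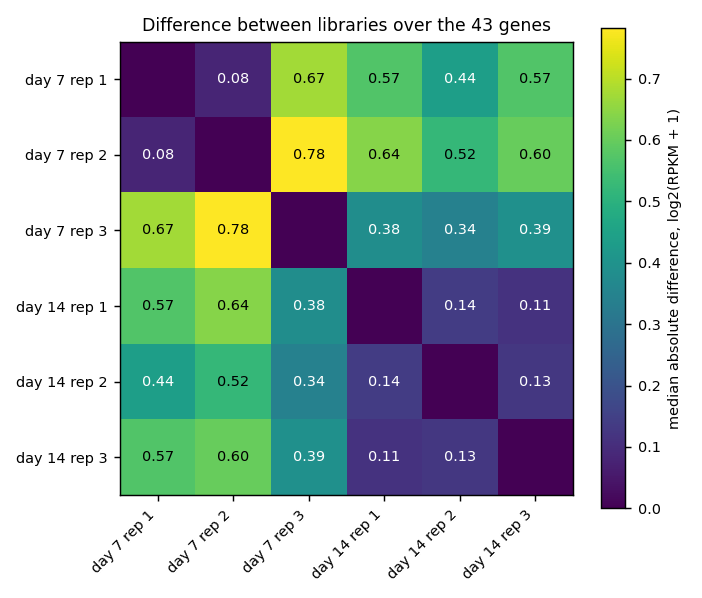
Median absolute difference in log2(RPKM + 1) over the 43 genes for each pair of libraries, from 0.080 (day 7 replicates 1 and 2) to 0.78 (day 7 replicates 2 and 3). Day 7 replicate 3 differs less from the day 14 libraries (0.34 to 0.39) than from the other day 7 libraries. Replicates 1 and 2 also differ less from the day 14 libraries (0.44 to 0.64) than from replicate 3.

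Scaling to T cell transcripts moved nearly all genes, the members among them and in no greater share. The summed RPKM of the 43 genes per summed RPKM of the 12 T cell markers was 1.13, 1.14 and 1.36 on day 7 and 4.96, 4.93 and 4.75 on day 14. With libraries scaled to these markers, limma called 28 of 30 members higher on day 14, where 94.6% of all genes were called and the all-gene median went from 0.16 to 1.87 on the log2 scale. The median of the 30 members was then 1.77, and Cdc6 (adjusted p = 0.0723) and Pole (adjusted p = 0.0572) were the 2 without a call. Median-of-ratios scaling put the all-gene median at -0.015 and that of the 30 members at -0.090. Under each of these scalings the members' median was slightly below that of all genes, a difference that was not tested. Which cells the replication transcripts came from was not measured in these libraries.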

How the data were processed

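Poly-A RNA libraries, 1 per sample, were trimmed with Trimmomatic 0.36 and counted with featureCounts of Subread 1.5.1 on GRCm38, per the submitters' processing notes. Neither the aligner nor the handling of molecular identifiers and strand is given in the sources used here. The authors deposited RPKM values per gene with the length of each gene model. Multiplying value, length and a common factor gave whole reads for every gene (tolerance 0.001), from which totals and reads per 1000000 were taken. Most low read numbers were even (75.6% to 87.7%), so about 2 reads stand for 1 fragment.

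limma 3.58.1 in R 4.3.3 was fitted to log2(RPKM + 1), with day as the only term, over genes with a mean of 20 or more reads per 1000000. Precision weights came from a loess trend (span 0.3, floor 0.005) of the variance within each day on the mean, and the variance trend was moderated. Benjamini-Hochberg adjusted p under 0.05 was a call. The script was tested on simulated data. Day 7 replicates 1 and 2 were averaged after seeing how close to sampling noise their difference was. Intervals are 95% limma intervals. The settings tried were 15, among them other filters, pseudocounts and scalings and each library left out. All 43 members are reported. By rule, values in each library are given for called members, the 4 highest and 4 lowest fold changes, the most abundant gene of each role group, the MCM ring, reductase, Tyms, Tk1 and Pcna; those of other members were added after their values were seen. The members, gene lists and the weighting were chosen with earlier results of these data known, so no pattern here is independent support for those results.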

Additional observations from a re-analysis of the deposited data

How the results depend on the processing

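Of the members, 0 were called as reported, with a pseudocount of 0.1, without weights and with median-of-ratios scaling. The number was 1 with a filter of RPKM 1 or more in 2 samples, 1 with no filter, 2 with 6 libraries counted singly, 7 with limma-voom, 28 with scaling to T cell markers, and 0 to 16 with a library left out, where 16 came without day 7 replicate 3 and 0 without any other. Calls over all genes, 329 as reported, were 1528, 1450, 1560, 2145 and 6333 in those 5 settings, 1011 without weights and 260 to 3907 with a library left out. Other pathway genes, 0 as reported, gave 4, 4, 3, 13 and 63, and 0 to 30 with a library left out. Mitosis genes, 2 as reported, gave 0, 0, 11, 13 and 19, 0 with a pseudocount of 0.1, 0 with median-of-ratios scaling, 9 without weights and 0 to 19 with a library left out (0 without day 14 replicate 1 or 2, 1 without day 7 replicate 1, 19 without day 7 replicate 3). The cause of these shifts was not tested. Some settings used fewer samples or other genes. The fits without weights, with limma-voom and with T cell scaling tested the same 6691 genes as reported.

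The labels number replicates alike on both days, but same-numbered libraries did not deviate together (correlations -0.0145, -0.0148 and -0.0341), and none correlated best with its own number. With 6 libraries and the replicate block, 1162 genes, 0 members, 2 other pathway genes and 11 mitosis genes were called, and the log2 fold changes of Prim2, Rfc5 and Ccne1 turned to -0.048, 0.077 and -0.092, the same as without the replicate block when libraries were counted singly.

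Scaling to T cell markers turned uncalled negative changes to 1.76 (Mcm3), 1.13 (Mcm5), 1.48 (Mcm6), 0.80 (Cdc6), 1.32 (Gmnn), 1.71 (Cdc45), 1.13 (Gins2), 0.92 (Pole), 1.61 (Rfc5), 1.39 (Rpa1), 1.58 (Rrm2) and 1.18 (Dut). Median-of-ratios scaling turned Mcm10 to -0.0096, Pola1 to -0.037, Pcna to -0.081, Rfc2 to -0.15, Ccne1 to -0.11, Uhrf1 to -0.045 and Chaf1a to -0.10. limma-voom turned Cdc45 to 0.027, Prim2 to -0.41, Rfc5 to 0.19 and Ccne1 to -0.25. With a library left out, the log2 fold change of Cdc45 went from -0.099 to 0.085, Pola1 from -0.096 to 0.23, Prim2 from -0.72 to 0.31, Rfc2 from -0.088 to 0.77, Rfc5 from -0.10 to 0.32 and Ccne1 from -0.39 to 0.090. The sign turned without day 7 replicate 3 for Cdc45 (0.085), Pola1 (-0.096), Prim2 (-0.72), Rfc5 (0.32) and Ccne1 (-0.39), without day 7 replicate 1 for Rfc5 (0.0080) and without day 14 replicate 1 for Rfc2 (-0.088). Of all these turned values, limma called Prim2 without day 7 replicate 3 and 10 of the 12 under T cell scaling, not Cdc6 and Pole.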
